A study of Mus musculus with 15 samples.

Results

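The skeletal muscle genes described here are 43 genes of the contractile apparatus, calcium handling and energy supply of striated muscle, taken from the 55573 genes of the count table by their symbols and sorted by role. They hold 8 thick filament, 10 thin filament, 11 Z-disc and costamere, 7 calcium handling and 5 energy metabolism genes, and 2 genes of sarcomere assembly and turnover. The tissue was the trigeminal ganglion (TG), the sensory ganglion of the face and cornea, from male 10-week-old CD1 mice. In every group the centre of the right cornea had been marked with a 2-mm trephine and injured by removal of the epithelium and anterior stroma, the eye had been treated 3 times per day, and the right TG was taken on day 12. The groups were vehicle (5 TG, replicates 1 to 5), RvD6-standard (5 TG, replicates 6 to 10; resolvin D6, a dihydroxylated derivative of docosahexaenoic acid) and RvD6-isomer (5 TG, replicates 11 to 15; RvD6si, a stereoisomer of RvD6). No uninjured TG was analysed here, and the lipid doses are not given in the sources used here. Libraries held 4125962 to 9903396 counted reads and were prepared from 1 ng of total RNA each. Nothing in the labels ties the samples to a dissection day or batch, and p-values measure only the spread between these 15 samples. Fewer cells of a type and less RNA per cell cannot be told apart in such bulk RNA.

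The sarcomere is the contractile unit of striated muscle, in which myosin thick filaments slide along actin thin filaments anchored at the Z-disc. Calcium released from the sarcoplasmic reticulum binds the troponin complex and frees actin for myosin, and creatine kinases and glycolytic enzymes regenerate the ATP that is spent. Fast and slow fibres use different genes for the same part: fast fibres use the heavy chains Myh1, Myh2 and Myh4 and the troponins Tnni2, Tnnt3 and Tnnc2, and slow fibres use Myh7, Tnni1, Tnnt1 and Tnnc1. Slow-fibre heavy chain and troponin C are shared with the heart, and Actc1 is the principal actin of the heart. The TG lies at the base of the skull close to the muscles of the jaw and its motor root supplies them, but sensory neurons, satellite glia and Schwann cells do not build sarcomeres.

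RefSeq promoter sequences (GRCm38.p6) were matched for 33 of the 43 genes, all but Actn3, Cacng1, Jph1, Myot, Myoz1, Neb, Tcap, Tnni2, Tnnt3 and Trdn. The 250 bases before the first listed start site are shown for 5 of them: Acta1 and Ckm, which moved with most of the list, the neighbouring fast heavy chains Myh4 and Myh1, whose ratio differed between libraries, and the slow heavy chain Myh7, which stayed near 0. Capitals mark 5 motifs: the E-box CAGCTG, read by myogenic factors, the MEF2 site, the CArG box of serum response factor, the MCAT element CATTCC (both strands, so GGAATG is its reverse), and the TATA motif TATAAA on the gene's strand.
Acta1 (chr8:123894776-123895025, minus strand): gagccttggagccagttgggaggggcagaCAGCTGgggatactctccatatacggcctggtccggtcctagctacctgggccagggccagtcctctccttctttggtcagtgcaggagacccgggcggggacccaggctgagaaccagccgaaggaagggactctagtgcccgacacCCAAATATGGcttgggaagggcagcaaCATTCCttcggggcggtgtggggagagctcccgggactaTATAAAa
Ckm (chr7:19410844-19411093, plus strand): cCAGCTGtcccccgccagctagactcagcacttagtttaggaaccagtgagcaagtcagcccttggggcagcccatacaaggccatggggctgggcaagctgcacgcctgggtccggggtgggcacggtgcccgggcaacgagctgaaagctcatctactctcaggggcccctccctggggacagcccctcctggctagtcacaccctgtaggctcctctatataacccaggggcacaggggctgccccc
Myh4 (chr11:67237562-67237811, plus strand): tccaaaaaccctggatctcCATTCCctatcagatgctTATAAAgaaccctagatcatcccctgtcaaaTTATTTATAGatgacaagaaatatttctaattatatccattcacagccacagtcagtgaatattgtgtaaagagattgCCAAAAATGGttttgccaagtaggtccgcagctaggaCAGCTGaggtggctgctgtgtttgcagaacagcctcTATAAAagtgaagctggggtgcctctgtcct
Myh1 (chr11:67199852-67200101, plus strand): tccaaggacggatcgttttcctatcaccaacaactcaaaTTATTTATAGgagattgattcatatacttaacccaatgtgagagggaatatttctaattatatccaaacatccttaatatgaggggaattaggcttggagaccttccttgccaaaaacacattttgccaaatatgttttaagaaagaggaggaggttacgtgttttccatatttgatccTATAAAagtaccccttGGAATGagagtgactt
Myh7 (chr14:54994627-54994876, minus strand): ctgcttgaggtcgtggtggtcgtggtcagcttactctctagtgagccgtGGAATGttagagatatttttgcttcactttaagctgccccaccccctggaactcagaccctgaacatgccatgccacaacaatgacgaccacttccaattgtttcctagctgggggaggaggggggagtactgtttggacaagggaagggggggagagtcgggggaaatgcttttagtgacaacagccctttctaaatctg
The window of Myh4 held all 5 motifs and that of Myh7 held 1 MCAT element. The E-box CAGCTG was present in 17 of the 33 genes (51.5%), against 14.7% of the 27018 genes of the promoter table. The MEF2 site was present in 5 of the 33 (15.2% against 3.41%), the CArG box in 4 (12.1% against 1.62%), CATTCC in 10 (30.3% against 14.4%) and TATAAA in 5 (15.2% against 8.93%). These matches describe the letters of the windows and not binding.

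Muscle transcripts were a trace of every library outside the RvD6-standard group and reached their highest level in 2 RvD6-standard TG. Summed over the 43 genes, the level was 169, 184, 116, 342 and 160 CPM (counts scaled to the same total in every library) in the 5 vehicle TG, in the order of replicates 1 to 5. It was 767, 302, 3650, 5649 and 783 CPM in RvD6-standard replicates 6 to 10, and 144, 176, 159, 124 and 133 CPM in RvD6-isomer replicates 11 to 15. RvD6-standard replicates 8 and 9 stood apart, at 21.6 and 33.4 times the vehicle median, and held 64.6% of the 81465 reads that fell on the 43 genes in all libraries. Replicates 6 and 10 were at 4.53 and 4.63 times that median. Replicate 7 was at 1.79 times it, below vehicle replicate 4, so the summed levels of RvD6-standard and vehicle TG overlapped, whereas every RvD6-standard TG was above every RvD6-isomer TG. Of the 43 genes, 41 had their highest normalized count in replicate 8 or 9, and the exceptions were the slow-fibre genes Tnni1 and Myh7. Even in replicate 9 the 43 genes were 0.565% of the counted reads.

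**Figure D1:**
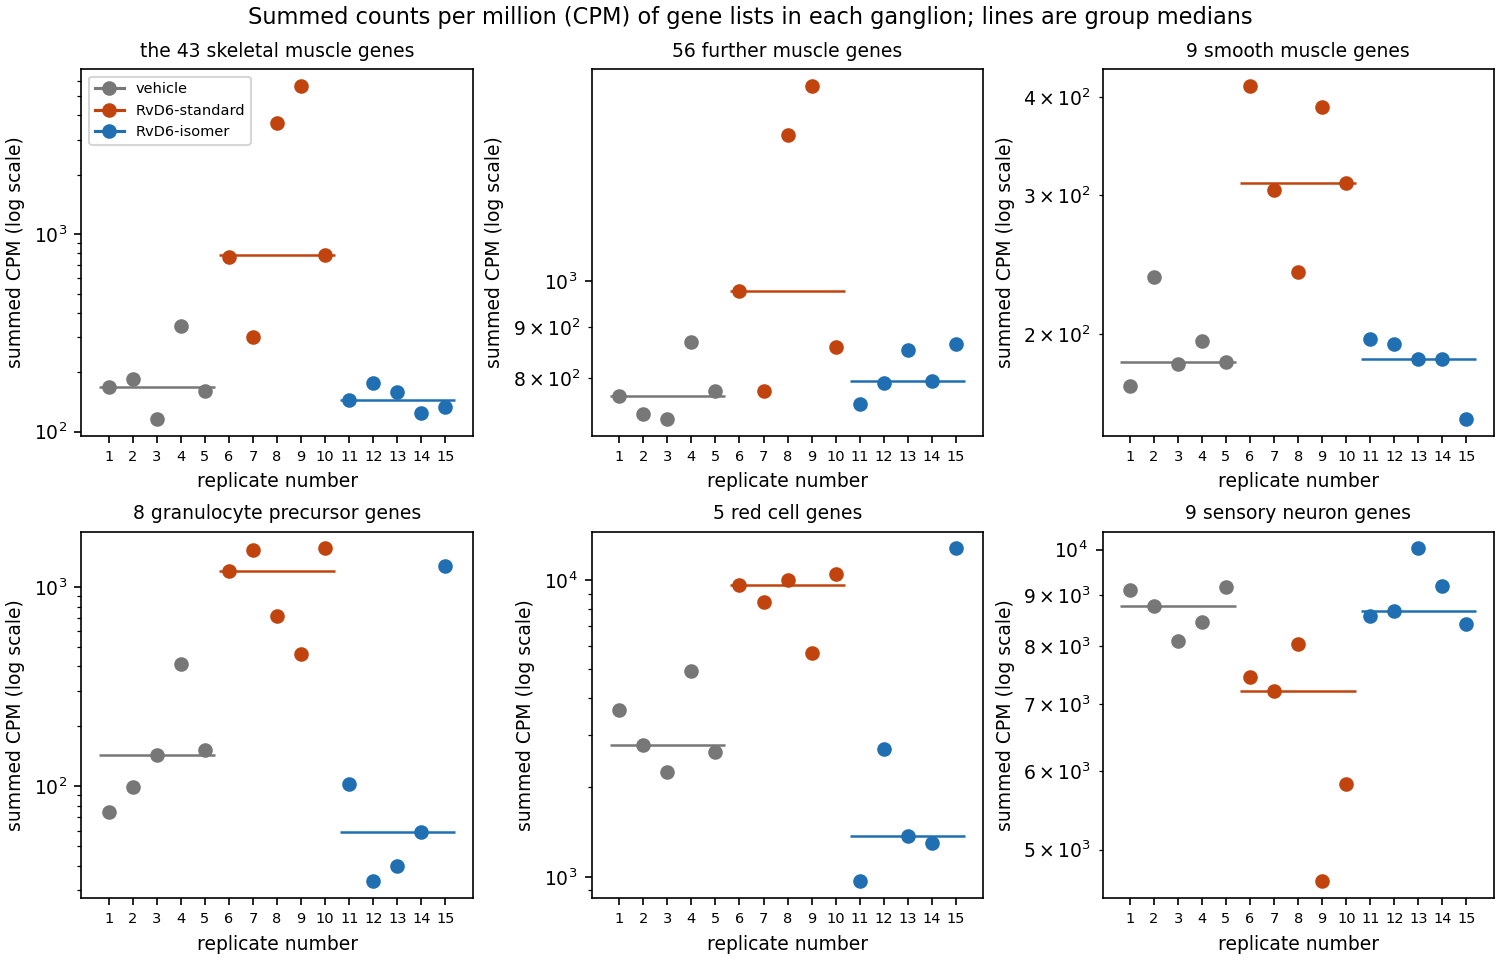
Summed CPM (log axis) of 6 gene lists in each of the 15 TG, by replicate number and coloured by group, with a line at each group's median. The 43 muscle genes reach 3650 and 5649 CPM in RvD6-standard replicates 8 and 9, while the granulocyte precursor and red cell genes are also high in RvD6-isomer replicate 15, whose muscle genes are at 133 CPM.

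Markers of other cells moved with the RvD6-standard group as well, and their part in the muscle gene result was not tested. Sensory neuron markers (9 of 9 passed the filter) summed to 8099 to 9173 CPM in vehicle, 4649 to 8047 CPM in RvD6-standard and 8420 to 10036 CPM in RvD6-isomer TG, which accords with the tissue label, and the lowest value was in replicate 9. Genes of bone marrow granulocyte precursors (8 of 8 passed) summed to 74.5 to 410 CPM in vehicle, 460 to 1571 CPM in RvD6-standard and 33.4 to 1274 CPM in RvD6-isomer TG. Within the RvD6-standard group they were lowest in replicates 9 (460 CPM) and 8 (713 CPM), where the muscle genes were highest. Red cell genes (5 of 5) ran from 2261 to 4953 CPM in vehicle, 5682 to 10435 CPM in RvD6-standard and 967 to 12793 CPM in RvD6-isomer TG. Smooth muscle and mural genes (8 of 9) ran from 172 to 236 CPM, 240 to 413 CPM and 156 to 197 CPM in the same order, and were highest in replicate 6. Pituitary genes (4 of 4) ran from 8.68 to 3559 CPM (median 87.3) in vehicle, 216 to 2282 CPM (median 750) in RvD6-standard and 20.5 to 682 CPM (median 59.6) in RvD6-isomer TG. Satellite glia genes (4 of 4) were at 6548 to 7688, 4794 to 6168 and 4464 to 6634 CPM, and Schwann cell genes (4 of 4) at 13498 to 20092, 11754 to 17403 and 13484 to 21202 CPM. Tendon and fascia genes (5 of 7) were at 19 to 38.3, 27.4 to 78.3 and 16.9 to 53.5 CPM.

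Heart markers overlapped between the groups, and markers of satellite cells were at or near 0. The 9 heart markers summed to 22.3 to 46.5 CPM in vehicle, 22.1 to 53.6 in RvD6-standard and 14.2 to 52.4 CPM in RvD6-isomer TG. Ryr2 made up most of each group's sum, with means of 179, 221 and 183 normalized counts. Replicate 9 had the lowest sum of its group and also its lowest Ryr2 (90.5). The heavy chain Myh6 averaged 19.6, 34.3 and 10.3 in the same order and was highest in replicate 8 (42.0), but its groups overlapped. For RvD6-isomer against RvD6-standard, edgeR log2 fold changes were -1.68 ± 0.574 for Myh6, -0.77 ± 0.700 for Myl4 and -0.27 ± 0.351 for Ryr2. These 3 alone passed the filter, and none was called. Nppa had 0 reads in every library, and the cardiac troponins Tnni3 and Tnnt2 were at 0 in both replicates 8 and 9. Among regulators of muscle, Myf5 had 0 reads in all 15 libraries and Pax7, the marker of satellite cells, had reads in replicate 10 alone (2.01 normalized counts). Myf6, the myogenic factor of mature fibres, had normalized counts of 8.41 in replicate 8, 45.9 in replicate 9 and 2.01 in replicate 10, and 0 in the other 12 libraries. Myod1 was at 9.81 in replicate 8 and at 0 elsewhere.

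The filter on low counts kept 34 of the 43 genes among 16567 genes tested, and 11 of these 34 passed only through the RvD6-standard samples, so counts over the 34 describe them and are no support for a difference. With edgeR's quasi-likelihood test and Benjamini-Hochberg adjustment over all genes tested, 17 of the 34 genes were lower in RvD6-isomer than in RvD6-standard TG and 0 were higher, where 0.223% of all genes tested were called lower. These 17 were among 39 genes called in either direction, 0.235% of those tested. At an unadjusted p under 0.05, 30 of the 34 were lower and 0 higher, where 4.64% of all genes tested were lower. Of the 23 genes that passed the filter without the RvD6-standard samples, 11 were called, all lower. With no filter, 23 of the 43 were called lower (0.165% of all genes), and DESeq2 called 26 of the 43 lower (0.678%). Among the other 22 called genes, 3 were on a list of 56 further muscle genes and 19 were on neither list. The median log2 fold change of the 34 genes was -4.03, and that of all genes tested was 0 to 2 decimals.

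The 17 calls depended on single libraries. They numbered 0 without RvD6-isomer replicate 11, 13 or 14, 6 without RvD6-standard replicate 8, 5 without replicate 9, and 0 without both, although the fitted differences of all 17 genes stayed below 0 without both. Without replicates 8 and 9, which was chosen after seeing the data, 22 of 34 genes were lower and 1, Ldb3 (0.59), was higher in RvD6-isomer TG at an unadjusted p under 0.05, where 4.24% of all genes in that fit were lower and 4.80% higher, and the median log2 fold change was -2.64.

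Between RvD6-standard and vehicle TG, edgeR called 0 of the 34 genes and 0% of all genes tested. At an unadjusted p under 0.05, 31 of the 34 were higher and 0 lower, where 7.63% of all genes were higher, and the smallest adjusted p was 0.0784 (Ttn). This comparison depended on the fit: with no filter edgeR called 22 of the 43 genes higher (0.165% of all genes), and DESeq2 called 25 of the 43 higher (1.44%). The median log2 fold change of the 34 genes was 3.63, against 0.02 for all genes tested. Without replicates 8 and 9 the median was 1.84 and edgeR called 0 genes, with 19 of 34 higher at an unadjusted p under 0.05, where 5.81% of all genes in that fit were. Leaving out RvD6-standard replicate 7, the library with the least muscle RNA of its group, gave 14 of 38 muscle genes then tested called higher (0.101% of all genes tested, 17 genes), and leaving out RvD6-isomer replicate 15 gave 9 of 38 (0.293%, 50 genes). The comparisons share the RvD6-standard samples, so they are not separate evidence of one another.

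In normalized counts, 8 of the 43 genes were higher in every RvD6-standard TG than in every vehicle TG, where 2.25% of all genes tested were. These were Neb, Ttn, Myot, Xirp2, Nrap, Atp2a1, Trdn and Klhl41. In RvD6-isomer TG, 15 of the 43 were lower than in every RvD6-standard TG (1.09% of all genes tested), among them Myl1, Mylpf, Mybpc2, Acta1, Tnni2, Tnnt3, Ckm and Mb. Of the genes in these 2 counts, Myot, Nrap, Trdn, Myl1 and Tnnt3 passed the filter only through the RvD6-standard samples. Klhl41 did not pass it, while both percentages are over genes that did. These 2 counts therefore describe the genes and are no support for a difference. In the map of normalized counts, the brightest column was replicate 9 for 35 genes.

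**Figure D2:**
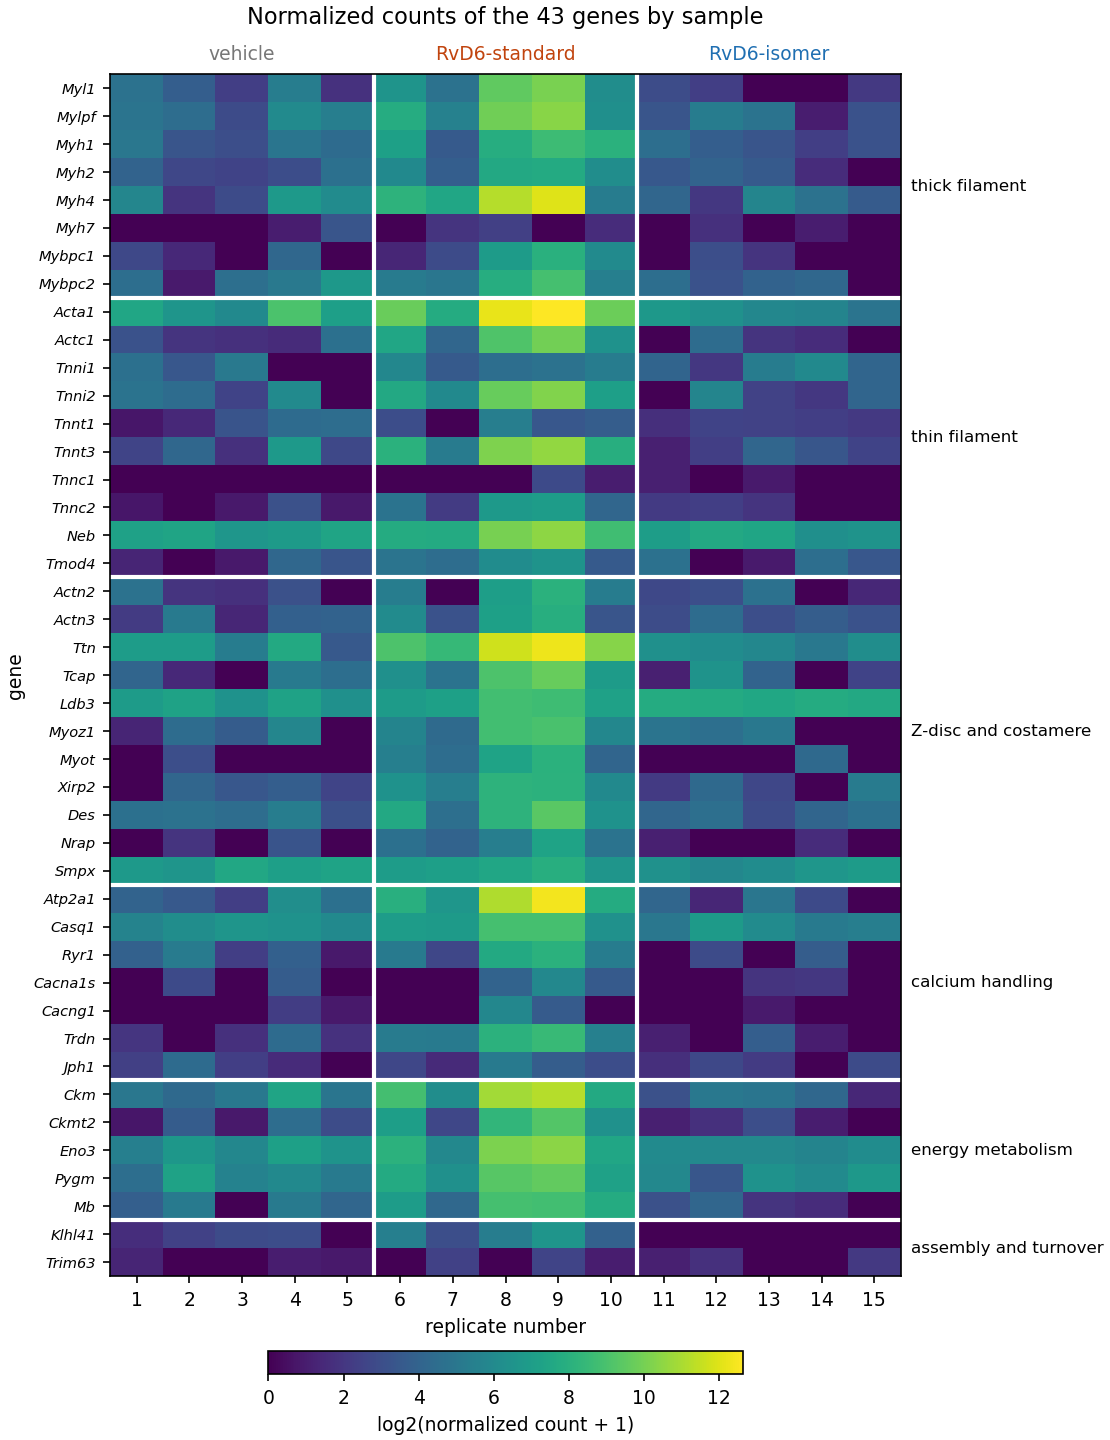
Colour gives log2(normalized count + 1) of the 43 genes (rows, by role) in the 15 TG (columns, by replicate number and group). The brightest column is replicate 8 or 9 for 41 genes, while Smpx and Ldb3 differ less between columns than most genes and Myh7, Tnnc1 and Trim63 stay dark.

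Thick filament genes were led by Myh4, the heavy chain of the fastest fibres (chromosome 11, 67238029 to 67260446, GRCm38). Its normalized counts were 55.5, 2.67, 6.42, 109 and 66.6 in vehicle, 287, 178, 2377, 4170 and 38.3 in RvD6-standard and 16.9, 3.19, 52, 25.9 and 11.4 in RvD6-isomer TG. Replicate 10, with 783 CPM of muscle genes, was below vehicle replicates 1, 4 and 5, and the groups overlapped. The difference between RvD6-isomer and RvD6-standard was a log2 fold change of -5.96 ± 1.16 (SE, edgeR adjusted p = 0.0387). Against vehicle, RvD6-standard gave 4.87 ± 1.07 (adjusted p = 0.0967).

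Myh1, the heavy chain of intermediate fast fibres, followed another order. Its normalized counts were 31.0, 8.90, 7.22, 29.5 and 20.6 in vehicle, 143, 10.8, 235, 398 and 264 in RvD6-standard and 22.6, 12.8, 9.13, 4.14 and 8.13 in RvD6-isomer TG, so replicate 10 was above replicate 8. RvD6-isomer was lower than RvD6-standard by a log2 fold change of -4.19 ± 0.70 (edgeR adjusted p = 0.0207). Myh2 of oxidative fast fibres had normalized counts of 15.1, 5.34, 4.81, 6.89 and 23.9 in vehicle, 61.7, 12.6, 196, 207 and 71.5 in RvD6-standard and 10.2, 15.2, 11, 2.07 and 0 in RvD6-isomer TG. It was highest in replicates 8 and 9 and was not called (-3.75 ± 0.78, adjusted p = 0.0547). From 9.68% to 20.88% of the 75-base words of these 3 heavy chains also occur in other genes, chiefly other heavy chains, and reads on them were not counted where they mapped to several places.

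The alkali and regulatory light chains also had their highest counts in replicates 8 and 9. Myl1, the alkali light chain of fast myosin, had 26.0, 12.5, 4.01, 40.3 and 2.47 normalized counts in vehicle, 91.5, 26.1, 755, 1087 and 72.5 in RvD6-standard and 6.78, 3.99, 0, 0 and 3.25 in RvD6-isomer TG. Its log2 fold change between RvD6-isomer and RvD6-standard was -7.15 ± 1.17 (edgeR adjusted p = 0.0199), with no overlap between these groups. Mylpf, the regulatory light chain of fast fibres, had normalized counts of 28.1, 22.2, 6.42, 64 and 41.1 in vehicle, 224, 45.1, 965, 1349 and 78.5 in RvD6-standard and 9.03, 38.3, 27.4, 1.03 and 8.13 in RvD6-isomer TG. RvD6-isomer and RvD6-standard did not overlap (-4.89 ± 0.91, adjusted p = 0.0314). Mybpc2 and Mybpc1 encode the fast and slow forms of the thick filament's binding protein C. Mybpc2 had normalized counts of 22.4, 0.890, 23.3, 33.5 and 105 in vehicle, 37.5, 29.7, 235, 483 and 42.3 in RvD6-standard and 22.6, 7.99, 14.6, 17.6 and 0 in RvD6-isomer TG. RvD6-isomer lay below RvD6-standard without overlap, and the gene was not called (adjusted p = 0.173).

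The thin filament genes were led by Acta1, skeletal muscle actin (chromosome 8, 123891769 to 123894751), which also had the most reads of the 43 genes. Its normalized counts were 179, 94.3, 62.6, 529 and 140 in vehicle, 849, 214, 4748, 6342 and 881 in RvD6-standard and 106, 83.9, 55.7, 50.7 and 27.6 in RvD6-isomer TG. The means were 201 ± 189, 2607 ± 2754 and 64.8 ± 30.6 (SD, n = 5), so the spread in RvD6-standard exceeded its mean. RvD6-isomer and RvD6-standard did not overlap, and their log2 fold change was -5.30 ± 0.83 (edgeR adjusted p = 0.0197). Against vehicle, RvD6-standard was at 3.69 ± 0.76 (adjusted p = 0.0967). Per kilobase of exon Acta1 was the highest of the 43 genes in replicate 9, at 567 CPM per kb, ahead of Atp2a1 at 215 and Mylpf at 174.

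Actc1, the cardiac-type actin, had 7.93, 2.67, 2.41, 1.97 and 24.7 normalized counts in vehicle, 177, 17.1, 565, 984 and 84.6 in RvD6-standard and 0, 20.8, 2.74, 2.07 and 0 in RvD6-isomer TG. It was lower in RvD6-isomer than in RvD6-standard TG (-5.93 ± 1.08, edgeR adjusted p = 0.0247), with overlap through RvD6-isomer replicate 12. Tnnt3, the tropomyosin-binding troponin of fast fibres, had 5.05, 17.8, 2.41, 115 and 5.76 in vehicle, 265, 37, 1147, 1558 and 238 in RvD6-standard and 1.13, 3.99, 17.3, 9.31 and 4.88 in RvD6-isomer TG. Vehicle replicate 4 stood above the other vehicle TG. RvD6-isomer was lower than RvD6-standard by -6.39 ± 1.12 (adjusted p = 0.0247). Nebulin (Neb), the ruler of thin filament length, was measurable in every TG, with normalized counts of 149, 167, 99.5, 118 and 164 in vehicle, 220, 211, 1047, 1450 and 432 in RvD6-standard and 129, 196, 173, 78.6 and 87.8 in RvD6-isomer TG, and every RvD6-standard TG was above all others. Its difference was among the smaller called ones (-2.32 ± 0.46, adjusted p = 0.0392). Tnni2, the inhibitory troponin of fast fibres, had normalized counts of 26.7, 21.4, 4.81, 64 and 0 in vehicle, 193, 63.1, 827, 1192 and 139 in RvD6-standard and 0, 52.7, 4.56, 3.1 and 16.3 in RvD6-isomer TG. It separated RvD6-isomer from RvD6-standard and was not called (-4.90 ± 1.04, edgeR adjusted p = 0.0603).

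**Figure D3:**
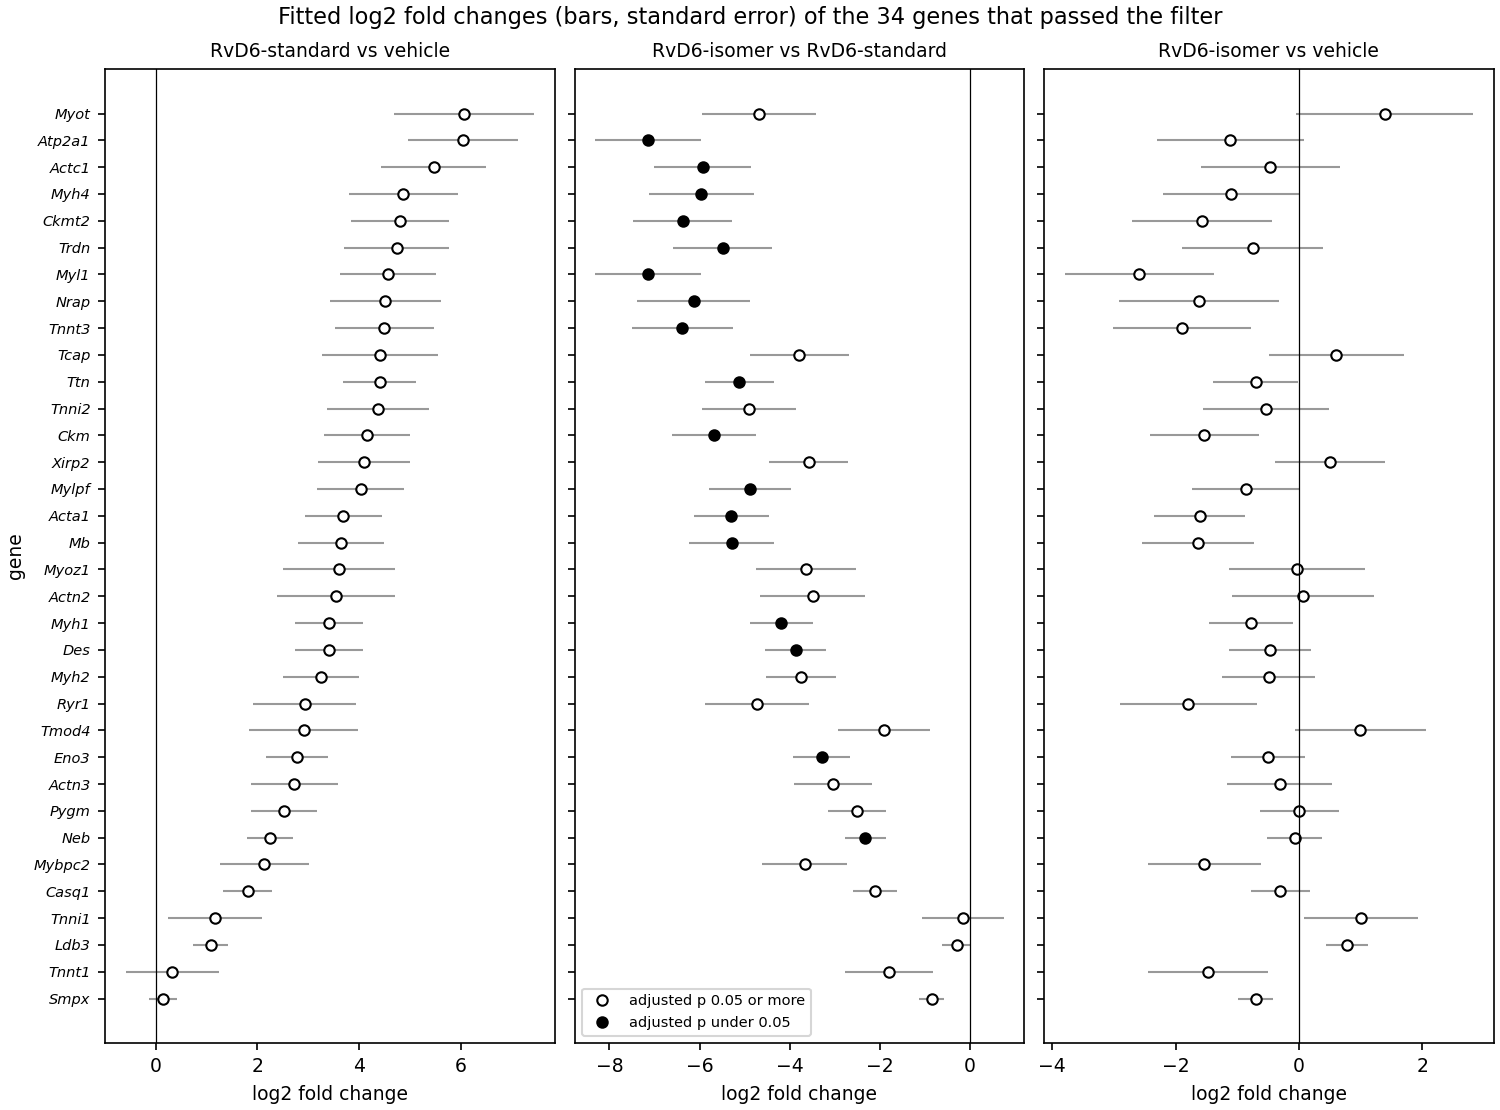
Fitted log2 fold changes with standard errors (edgeR, x axis) of the 34 genes that passed the filter, in 3 comparisons; filled points have an adjusted p under 0.05. The 17 filled points all lie in the comparison of RvD6-isomer with RvD6-standard, between -2.32 (Neb) and -7.15 (Myl1).

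Among Z-disc and costamere genes, all 11 passed the filter and 3 were called, each lower in RvD6-isomer than in RvD6-standard TG (0.223% of all genes tested were called lower). Of the 11, Actn2, Myot and the called gene Nrap passed only through the RvD6-standard samples. Titin (Ttn), the spring that runs from the Z-disc to the thick filament, had 125, 125, 38.5, 204 and 10.7 normalized counts in vehicle, 550, 351, 3396, 5149 and 1312 in RvD6-standard and 80.2, 70.3, 55.7, 32.1 and 71.5 in RvD6-isomer TG. Every RvD6-standard TG was above every TG of both other groups. The log2 fold change of RvD6-isomer against RvD6-standard was -5.12 ± 0.76 (edgeR adjusted p = 0.0132), and that of RvD6-standard against vehicle was 4.41 ± 0.72 (adjusted p = 0.0784). Desmin (Des), the intermediate filament of muscle, had normalized counts of 24.5, 25.8, 21.7, 40.3 and 7.4 in vehicle, 198, 23.4, 291, 684 and 86.6 in RvD6-standard and 16.9, 23.2, 6.39, 16.6 and 24.4 in RvD6-isomer TG. The groups overlapped through RvD6-standard replicate 7 (-3.87 ± 0.68, adjusted p = 0.0247). Nrap, an actin-anchoring protein of developing and mature myofibrils, had normalized counts of 0, 2.67, 0, 8.86 and 0 in vehicle, 24.2, 15.3, 40.6, 159 and 27.2 in RvD6-standard and 1.13, 0, 0, 2.07 and 0 in RvD6-isomer TG. Every RvD6-standard TG was above all others (-6.13 ± 1.25, adjusted p = 0.0471).

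Myot, a Z-disc protein that binds filamin and alpha-actinin, had normalized counts of 0, 7.12, 0, 0 and 0 in vehicle, 42.2, 21.6, 157, 269 and 16.1 in RvD6-standard and 0, 0, 0, 18.6 and 0 in RvD6-isomer TG, and thus 0 reads in 4 of the 5 vehicle and 4 of the 5 RvD6-isomer TG. Xirp2, an actin-binding repeat protein, had normalized counts of 0, 16.9, 9.63, 12.8 and 4.93 in vehicle, 85.2, 40.6, 291, 281 and 63.4 in RvD6-standard and 3.39, 19.2, 5.48, 0 and 37.4 in RvD6-isomer TG, with RvD6-standard above both other groups. The alpha-actinins, which cross-link actin at the Z-disc, overlapped between the groups: Actn2 had normalized counts of 26, 2.67, 2.41, 7.87 and 0 in vehicle, 39.9, 0, 134, 264 and 38.3 in RvD6-standard and 5.65, 7.19, 25.6, 0 and 1.63 in RvD6-isomer TG, and Actn3, the form of fast fibres, had normalized counts of 3.6, 36.5, 1.6, 13.8 and 14.8 in vehicle, 67.2, 8.11, 142, 244 and 9.06 in RvD6-standard and 6.78, 20.8, 7.3, 12.4 and 8.13 in RvD6-isomer TG. Ldb3 and Smpx stood apart from the rest of the class. Ldb3, which encodes a PDZ and LIM protein of the Z-disc, had 122, 152, 85.1, 153 and 81.4 normalized counts in vehicle, 122, 143, 443, 414 and 150 in RvD6-standard and 216, 211, 184, 215 and 198 in RvD6-isomer TG. All 5 RvD6-isomer values were above all 5 vehicle values (2.48% of all genes tested were so placed), with a log2 fold change of 0.78 ± 0.34 that was not called (edgeR adjusted p = 0.257). Smpx, a small protein of the costamere, was at 94.3 to 192, 95.6 to 240 and 55.9 to 120 in the 3 groups, and its values in replicates 8 (177) and 9 (240) lay near the vehicle maximum of 192.

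Calcium handling genes were led by Atp2a1, the sarcoplasmic reticulum calcium pump of fast fibres (chromosome 7, 126445858 to 126463108). Its normalized counts were 15.1, 10.7, 4.01, 73.8 and 23.9 in vehicle, 248, 98.2, 2236, 5448 and 215 in RvD6-standard and 16.9, 1.6, 30.1, 6.21 and 0 in RvD6-isomer TG. All RvD6-standard values were above all others. The log2 fold change was -7.14 ± 1.18 for RvD6-isomer against RvD6-standard (edgeR adjusted p = 0.0199) and 6.04 ± 1.08 for RvD6-standard against vehicle (adjusted p = 0.0967). On 21.94% of its exonic bases Atp2a1 overlaps Rabep2 on the opposite strand, and the counting used no strand. Triadin (Trdn), which links the calcium release channel to calsequestrin, had normalized counts of 2.88, 0, 2.41, 20.7 and 2.47 in vehicle, 36.7, 36, 275, 366 and 44.3 in RvD6-standard and 1.13, 0, 12.8, 1.03 and 0 in RvD6-isomer TG. All RvD6-standard values were again above all others (-5.49 ± 1.10, adjusted p = 0.0435). The release channel Ryr1 and calsequestrin Casq1 were not called (adjusted p = 0.124 and 0.0998). The voltage sensor Cacna1s and its partner Cacng1, and the junctional protein Jph1, did not pass the filter and reached at most 58.3, 56 and 36.4 normalized counts.

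All 5 energy metabolism genes passed the filter and 4 were called, each lower in RvD6-isomer than in RvD6-standard TG (0.223% of all genes tested were called lower). Ckmt2, one of the 4, passed only through the RvD6-standard samples. Ckm, the cytosolic creatine kinase of muscle (chromosome 7, 19404776 to 19422841), had 31.0, 18.7, 32.1, 168 and 28.8 normalized counts in vehicle, 464, 71.2, 1852, 2371 and 203 in RvD6-standard and 7.91, 32.7, 29.2, 17.6 and 1.63 in RvD6-isomer TG. RvD6-standard and RvD6-isomer did not overlap (-5.69 ± 0.93, edgeR adjusted p = 0.0199), and vehicle replicate 4 lay above RvD6-standard replicate 7. Ckmt2, the mitochondrial creatine kinase of muscle, had normalized counts of 0.721, 11.6, 0.802, 21.6 and 6.58 in vehicle, 134, 5.41, 312, 610 and 82.5 in RvD6-standard and 1.13, 2.4, 7.3, 1.03 and 0 in RvD6-isomer TG. RvD6-standard replicate 7 lay within the range of RvD6-isomer (-6.38 ± 1.09, adjusted p = 0.0247). Eno3, the muscle enolase, had normalized counts of 43.3, 103, 56.2, 145 and 88.8 in vehicle, 281, 59.5, 1122, 1398 and 177 in RvD6-standard and 65.5, 60.7, 60.2, 51.7 and 69.9 in RvD6-isomer TG. It too overlapped through replicate 7 (-3.29 ± 0.63, adjusted p = 0.0370). Myoglobin (Mb), the oxygen store, had normalized counts of 13, 36.5, 0, 34.4 and 17.3 in vehicle, 127, 18, 474, 446 and 215 in RvD6-standard and 7.91, 16.8, 2.74, 2.07 and 0 in RvD6-isomer TG. RvD6-isomer lay below RvD6-standard without overlap (-5.29 ± 0.94, adjusted p = 0.0247), and 31.9% of its exonic bases overlap genes on the opposite strand. Pygm, the muscle glycogen phosphorylase, was not called (-2.51 ± 0.65, adjusted p = 0.173).

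Neither gene of sarcomere assembly and turnover passed the filter. Klhl41, a stabiliser of nebulin, had 2.16, 4.45, 6.42, 6.89 and 0 normalized counts in vehicle, 43, 7.21, 39.2, 94.2 and 14.1 in RvD6-standard and 0 in all 5 RvD6-isomer TG. With 3 counts per library as the limit that a count of 0 allows, the RvD6-standard mean was at least 12.0-fold higher than that of RvD6-isomer. This limit covers the counting error of the RvD6-isomer libraries only and not the spread between TG. RvD6-standard replicate 7 was at 7.21, against an RvD6-isomer mean of 3.30 at that limit. Trim63, a ubiquitin ligase of muscle wasting, stayed at or below 4.96 in every library.

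Among the fibre-type genes, fast-fibre genes held most of the reads in every TG. The slow-fibre genes Myh7 and Tnnc1 were near 0, while Tnni1, Tnnt1 and Mybpc1 reached 63.1, 40.6 and 259 normalized counts. The 12 fast genes summed to 9.67 to 42.2 CPM per kb in vehicle, 35.7 to 900 CPM per kb in RvD6-standard and 6.08 to 22.3 CPM per kb in RvD6-isomer TG. Casq1, counted here as fast, had reads in every TG. It made up 6.41 of the 9.67 CPM per kb in vehicle replicate 3 and 8.66 of 22.3 in RvD6-isomer replicate 12. In RvD6-standard replicate 9 it made up 34.1 of 900. Fast shares of TG with few muscle reads therefore rest in part on this gene. The 5 slow genes summed to 0.544 to 1.84, 0.651 to 10.3 and 0.704 to 2.75 CPM per kb, and Actc1 to 0.167 to 2.03, 1.46 to 83.5 and 0 to 1.83 CPM per kb. As a share of fast and slow genes per kilobase, fast genes were at 93.1% (median, 84.8 to 96.5%) in vehicle, 98.2% (94.6 to 98.9%) in RvD6-standard and 89.3% (68.8 to 96.9%) in RvD6-isomer TG. By reads, the share in replicate 9 was 98.2% (95% Clopper-Pearson interval 98.0 to 98.4%, counting error only) and in RvD6-isomer replicate 14 it was 63.1% (55.6 to 70.2%). Where muscle reads were few, these shares rested on as few as 74 reads, in RvD6-isomer replicate 15. Of the 11 fast genes that passed the filter, edgeR called 6 lower in RvD6-isomer than in RvD6-standard TG (0.223% of all genes tested). Of the 2 slow genes that passed 0 were called (0 also at an unadjusted p under 0.05, and 0 by DESeq2). The fast genes Myl1 and Tnnt3 and the slow gene Tnnt1 passed only through the RvD6-standard samples. Mybpc1 did not pass, and its DESeq2 log2 fold change was -5.46 (adjusted p = 0.0736). With 2 slow genes tested, these counts cannot set fast against slow fibres.

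The slow genes did not act alike. Tnni1, the slow inhibitory troponin, had 24.5, 9.79, 32.9, 0 and 0 normalized counts in vehicle, 56.3, 10.8, 22.4, 26.0 and 38.3 in RvD6-standard and 15.8, 3.19, 38.3, 63.1 and 16.3 in RvD6-isomer TG. Its highest value was in a TG with little other muscle RNA, and the difference between RvD6-isomer and RvD6-standard was -0.16 on the log2 scale (95% interval -2.07 to 1.75, edgeR). Tnnt1, the slow tropomyosin-binding troponin, had normalized counts of 0.721, 1.78, 8.83, 20.7 and 22.2 in vehicle, 7.03, 0, 40.6, 9.92 and 12.1 in RvD6-standard and 2.26, 4.79, 4.56, 4.14 and 3.25 in RvD6-isomer TG, with its highest value in replicate 8 (-1.80, interval -3.86 to 0.26). Mybpc1 was higher in replicates 8, 9 and 10 (122, 259 and 64.4) than in any other library, where it was at or below 17.7. Of the summed CPM per kb of the 5 slow genes, Mybpc1 made up 3.60 of 6.97 in replicate 8 and 7.86 of 10.3 in replicate 9. Myh7 had at most 11 reads, in vehicle replicate 5, and 3 and 0 reads in replicates 8 and 9. Tnnc1 had at most 5 reads, in replicate 9.

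**Figure D4:**
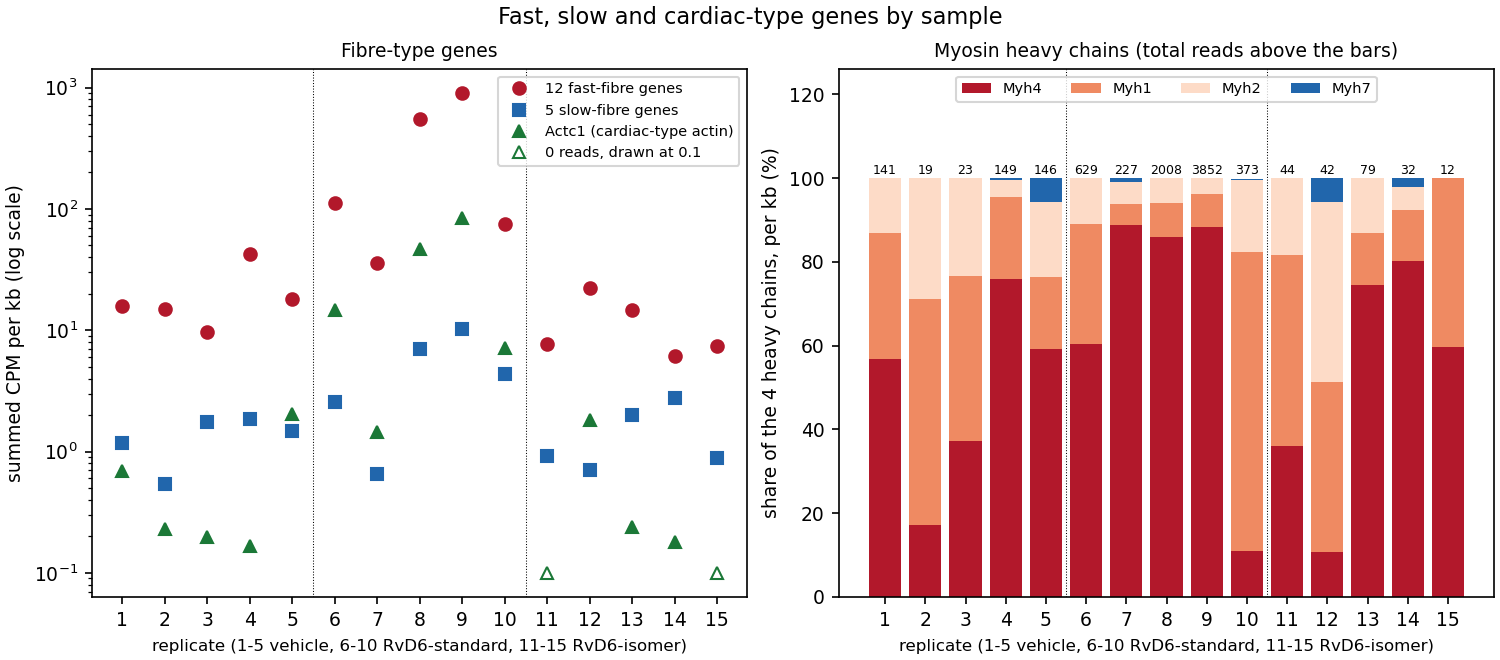
Left, summed CPM per kb (log axis) of 12 fast-fibre genes, 5 slow-fibre genes and Actc1 in each TG. Right, share of each of 4 myosin heavy chains in their sum per kilobase, with their total reads above each bar: Myh4 takes 85.9% and 88.3% in RvD6-standard replicates 8 and 9 and 10.9% in replicate 10.

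Ratios of fast to slow partners per kilobase differed between the libraries. Tnni2 was 88.7 times Tnni1 in replicate 8 (95% interval 54.1 to 156) and 110 times in replicate 9 (71.7 to 179), which do not differ beyond counting error. In replicates 6 and 10 it was 8.25 times (6.32 to 10.9) and 8.73 times (6.06 to 12.9). Tnnt3 was 39.3 times Tnnt1 in replicate 8 (27.2 to 59.1) and 219 times in replicate 9 (111 to 508). In replicates 6 and 10 it was 52.4 times (27.3 to 116) and 27.4 times (15.4 to 53.8). Both intervals overlap that of replicate 8, so this pair did not set replicates 8 and 9 apart from 6 and 10. Tnnc2 had 77 and 102 reads in replicates 8 and 9 against 0 and 5 reads of Tnnc1, and 74.0% of its exonic bases overlap Ube2c on the opposite strand. Mybpc2 was 2.42 times Mybpc1 in replicate 8 (1.86 to 3.17), 2.34 times in replicate 9 (1.97 to 2.78) and 0.823 times in replicate 10 (0.544 to 1.23). On 2 and 7 reads of Mybpc1 it was 30.1 times in replicate 6 (7.89 to 256) and 5.91 times in replicate 7 (2.57 to 15.8).

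The ratio of the skeletal to the cardiac-type actin stayed within a narrower range in RvD6-standard TG, and that of the alpha-actinins did not. Acta1 was 8.86 times Actc1 in replicate 8 (7.99 to 9.85), 6.79 times in replicate 9 (6.30 to 7.32), 5.04 times in replicate 6 (4.36 to 5.84), 13.2 times in replicate 7 (8.26 to 22.3) and 11.0 times in replicate 10 (8.76 to 13.9). In vehicle replicate 4, which had the most Acta1 of its group, it was 283 times on 2 reads of Actc1 (78.1 to 2346). In vehicle replicates 1, 2, 3 and 5 it was 23.7, 37.2, 27.4 and 5.97 times, on 11, 3, 3 and 30 reads of Actc1. In RvD6-isomer replicates 12, 13 and 14 it was 4.25, 21.4 and 25.8 times, on 26, 3 and 2 reads. The fast alpha-actinin Actn3 was 1.38 times Actn2 in replicate 8 (1.03 to 1.84), 1.21 times in replicate 9 (0.992 to 1.48) and 0.310 times in replicate 10 (0.132 to 0.652).

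The heavy chains gave the widest contrast within the RvD6-standard group. Myh4 was 10.7 times Myh1 per kilobase in replicate 8 (1697 against 168 reads, interval 9.10 to 12.6) and 11.1 times in replicate 9 (9.87 to 12.4). It was 17.4 times in replicate 7 (9.75 to 34.3), 2.12 times in replicate 6 (1.77 to 2.54) and 0.153 times in replicate 10 (38 against 262 reads, 0.106 to 0.216). Of the 4 heavy chains together, Myh1 made up 71.4% in replicate 10 and 8.05% and 7.98% in replicates 8 and 9. In vehicle TG the Myh4 to Myh1 ratio ran from 0.317 (on 13 reads of both) to 3.91.

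The level of each gene relative to replicate 8 was measured in the other RvD6-standard libraries for the 33 genes with at least 50 reads in replicate 8. Between replicates 9 and 8 all 33 genes lay within 2-fold of the median ratio of 1.42, from 0.960 (Ldb3) to 2.50 (Atp2a1), with an SD of 0.370 on the log2 scale. Between replicates 6 and 8 the median was 0.249, 25 of the 33 genes lay within 2-fold of it, and the range was 0.0128 (Mybpc1) to 0.713 (Smpx). Between replicates 10 and 8 the median was 0.190, 24 genes lay within 2-fold, and the range was 0.0165 (Myh4) to 1.15 (Myh1). Replicate 7 had a median of 0.0548 and 21 genes within 2-fold. The SDs of the log2 ratios were 1.03, 1.10 and 1.23 for replicates 6, 10 and 7, on fewer reads than in replicate 9, and that of replicate 7 leaves out Actn2, which had 0 reads there. Some of the 33 genes had reads in all 15 libraries, among them Smpx, Ldb3, Neb and Casq1, and also Acta1, Ttn and Eno3, which differed more between libraries. The source of the muscle RNA was not tested. Smpx, which was measurable in every TG, had the highest ratio in replicates 6 and 7 (0.713 and 0.818).

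**Figure D5:**
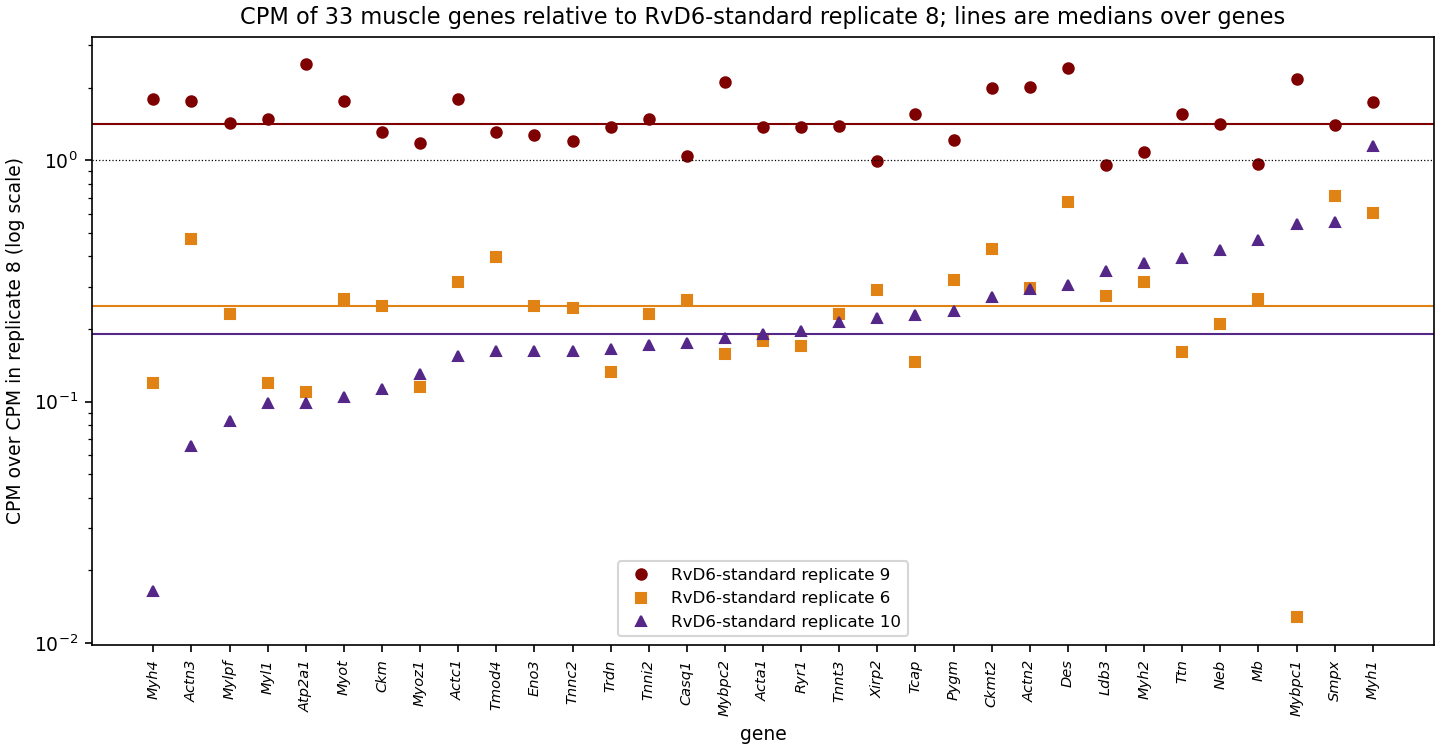
CPM in RvD6-standard replicates 9, 6 and 10 divided by CPM in replicate 8 (log axis) for 33 muscle genes, ordered by the ratio of replicate 10, with lines at the medians 1.42, 0.249 and 0.190. The points of replicate 9 lie between 0.960 and 2.50, and those of replicate 10 run from 0.0165 for Myh4 to 1.15 for Myh1.

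Between RvD6-isomer and vehicle TG, edgeR called 0 of the 34 genes, where 0.670% of all genes tested were called in either direction. DESeq2 and edgeR with no filter also called 0 of the 43, where they called 8.13% and 0.272% of all genes. At an unadjusted p under 0.05, 1 of the 34 was higher and 3 were lower, where 8.69% and 7.30% of all genes tested were. In either direction, 5 of the 43 differed so by DESeq2, where 3257 of the 55573 genes of the count table did, many of these without reads. With no filter 7 of the 43 differed so, where 4267 of 32699 genes did. Ldb3 was higher, and Smpx (-0.70 ± 0.28), Acta1 (-1.61 ± 0.74) and Myl1 (-2.59 ± 1.21) were lower on the log2 scale, with edgeR adjusted p of 0.228, 0.298 and 0.303. The 95% interval was -3.18 to -0.05 for Acta1 and -5.13 to -0.05 for Myl1, so these data leave both near 0 and severalfold lower levels within their error. Without vehicle replicate 4, which had the most Acta1 of its group, the difference of Acta1 was -0.86.

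The 56 further skeletal muscle genes, which are not among the 43, were less uniform. The filter kept 29, or 19 when the RvD6-standard samples were left out. The 3 with the highest mean normalized counts, Tpm1, Pfkm and Pdlim7, are also widely used outside muscle. In RvD6-isomer against RvD6-standard TG 3 were called, all lower, where 0.223% of all genes tested were called lower. These were Tpm2, a tropomyosin (-2.89 ± 0.467, edgeR adjusted p = 0.0199), Pgam2, the muscle phosphoglycerate mutase (-4.10 ± 0.796, adjusted p = 0.0387), and Cmya5, a protein of the costamere (-4.65 ± 0.865, adjusted p = 0.0314). Between RvD6-standard and vehicle edgeR called 0, as of all genes tested. At an unadjusted p under 0.05, 10 were higher and 1 lower, where 7.63% of all genes tested were higher and 992 of 16567 were lower. DESeq2 called 7 of the 56 higher (1.44% of all genes). The median log2 fold changes of the 29 were 0.71 for RvD6-standard against vehicle and -1.05 for RvD6-isomer against RvD6-standard.

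The genes outside the 43 whose pattern was most like theirs were ranked by Pearson's r over the 15 TG between log2 CPM and the mean centred log2 CPM of the 34 genes, as a description in which replicates 8 and 9 weigh most. The 10 highest among 16532 genes were Tpm2 (r = 0.974), Mylf-ps (0.949), Pgam2 (0.930), Cmya5 (0.891), Apobec2 (0.881), Hspb7 (0.864), Txlnb (0.862), Rpl3l (0.809), Pvalb (0.807) and Slfn8 (0.799). Mylf-ps is a pseudogene that shares 75-base words with Myl1, and reads that map to both were not counted for either. Without replicates 8 and 9, r over 13 TG was 0.923 for Tpm2 and 0.239 for Pvalb, the calcium buffer of fast fibres and of some sensory neurons. Pvalb was at 594 and 736 normalized counts in replicates 8 and 9 and at 147 to 320 in the other 13 TG. Among the 43 genes themselves, r with the rest of the list was 0.973 for Acta1 and 0.166 for Tnni1.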

How the data were processed

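RNA from 15 right TG was made into oligo-dT primed Smart-seq2 libraries, and per the labels and the methods of the study the authors aligned and counted reads with Subread (version 1.6.5 in the processing notes, featureCounts 1.5.0-p1 in the table header, R 3.6.1) against GRCm38 with GENCODE M22, without strand and without reads that mapped to several places or genes. The deposited values are raw counts per gene. Multigene families and genes that overlap on the opposite strand therefore lose reads. The 43 genes and all lists were chosen with earlier results of these data known. Symbols matched 55394 of 55573 gene identifiers.

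edgeR 4.0.16 (R 4.3.3) was fitted to all 15 samples with TMM scaling, a filter on low counts (minimum count of 10, total of 15) and a quasi-likelihood test, with Benjamini-Hochberg adjustment over 16567 genes and a threshold of 0.05. Normalized counts were divided by DESeq2 1.42.0 size factors, and CPM by the library total. Shares and ratios carry 95% Clopper-Pearson intervals, which cover counting error only. CPM per kb divides by exonic length. The test was checked on simulated counts for RvD6-standard against vehicle with 16567 genes, where it recovered 30% of genes changed by 1 and 75% of those changed by 2 on the log2 scale. Named genes were the role leaders by mean normalized count, the fast and slow partner pairs, every gene called and every gene whose groups did not overlap, while other genes are given by range or count. Samples of a group differed by 11.3 to 49.2 times the sampling noise (chi-square per degree of freedom), so none was counted as a repeat. Alternatives were other scalings, filters, DESeq2, 2-group fits, removal of the gene length trend, and each sample left out.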

Additional observations from a re-analysis of the deposited data

Results flagged for a closer look

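A value far from the other 4 of its group, by the gap to its nearest neighbour over the group's range (above Dixon's 95% critical value), was found in 9 of 57 groups examined. Dixon's value assumes independent, normally distributed values. These were counts, some near 0, of genes that moved together in the same libraries, so the number expected by chance is not known. In vehicle replicate 4 this held for Acta1 (529 normalized counts, the others 62.6 to 179), Atp2a1 (73.8, the others 4.01 to 23.9), Ckm (168, the others 18.7 to 32.1), Tnnt3 (115, the others 2.41 to 17.8) and Trdn (20.7, the others 0 to 2.88). That library also had the highest summed level of the 43 genes among the vehicle TG, 342 CPM. Actc1 was high in vehicle replicate 5 (24.7, the others 1.97 to 7.93) and in RvD6-isomer replicate 12 (20.8, the others 0 to 2.74). Nrap was high in RvD6-standard replicate 9 (159, the others 15.3 to 40.6), and Trdn in RvD6-isomer replicate 13 (12.8, the others 0 to 1.13).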

How the results depend on the processing

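No paired analysis was possible because the groups share no replicate number in the labels. For RvD6-isomer against RvD6-standard, 17 of the 43 genes were called, and RLE scaling gave 17, removal of the length trend 14 and no filter 23. DESeq2 gave 26, a minimum of 10 counts in every sample 4 (8 of the 43 genes were then tested), the 2-group fit 9 and leaving out both RvD6-standard replicates 8 and 9 gave 0. Single samples left out gave 0 to 21. All genes called numbered 39, and 185, 59, 23, 17 and 2 with DESeq2, no filter, the minimum in every sample, the 2-group fit and without replicates 8 and 9, and 2 to 156 with single samples left out. For RvD6-standard against vehicle 0 of the 43 were called, and 25 with DESeq2, 22 with no filter, 4 with the minimum in every sample, 5 in the 2-group fit and 0 to 14 with single samples left out (14 without RvD6-standard replicate 7, 9 without RvD6-isomer replicate 15). All genes called were 0, and 369, 56, 24 and 38 under the same 4 settings, and 0 to 51 with single samples left out. For RvD6-isomer against vehicle 0 of the 43 were called under every setting run, while all genes called were 111, and 920 with DESeq2, 315 with the minimum in every sample, 63 with the length trend removed and 0 to 229 with single samples left out. The minimum and the 2-group fit test fewer genes or samples, and otherwise the cause was not tested. The log2 fold changes of the role leaders that passed the filter, of the 17 called genes in both comparisons with RvD6-standard, and of the 4 genes with an unadjusted p under 0.05 between RvD6-isomer and vehicle kept their sign under every setting in which they could be fitted, while 119 of these values fell to the other side of the threshold and 62 passed it. Of the 34 genes tested, the sign changed under some setting for 3 between RvD6-standard and vehicle (Mybpc2, from 2.14 to -0.05 without replicates 8 and 9, Smpx and Tnnt1), for 2 between RvD6-isomer and RvD6-standard (Ldb3 and Tnni1) and for 13 between RvD6-isomer and vehicle. Group medians of summed CPM and of the fast share, and group means of the role leaders, moved by less than 1 SD under the alternatives run, but the RvD6-standard median of summed CPM (783) ran from 775 to 2217 when single samples were left out. Many values of the slow genes, and of the vehicle and RvD6-isomer groups, rest on fewer than 10 reads.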
